A study of Homo sapiens with 12 samples.

Results

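The genes described here are 36 genes of homologous recombination and of the Fanconi anaemia pathway, taken by symbol from a gene count table of 12 RNA libraries. All 36 were found, with 1 row each among the 40605 rows of the table, and all 36 were among the 13047 genes that passed the filter on low counts. The libraries come from A549, a human lung adenocarcinoma cell line, with a tetracycline-inducible gene for the protein kinase DYRK1B in its wild-type form (WT) or as Y273F, a form with a tyrosine-to-phenylalanine exchange. Per the titles, the groups are WT doxycycline, WT control, Y273F doxycycline and Y273F control, with 3 libraries each. Doxycycline groups received 2 µg/ml for 7 days, and controls had the same 7 days of culture without it. All 12 libraries therefore carry an inducible transgene, and the sources used here do not say whether either line is a single clone. The design text speaks of separate cell populations grown and lysed in parallel, and every library has the same batch label.

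Homologous recombination repairs a DNA double-strand break by copying an intact sister chromatid, and it acts mainly in S and G2 phase. The kinases ATM and ATR sense damage and activate CHEK2 and CHEK1. The MRE11-RAD50-NBN complex, RBBP8 (CtIP) and EXO1 cut the break back to single-stranded DNA, BRCA1, BARD1, PALB2 and BRCA2 prepare it for pairing with the sister strand, and BLM with RMI1 and RMI2, or the MUS81-EME1 nuclease, separate the joined strands. The Fanconi pathway detects DNA interstrand crosslinks: its core complex and the E2 enzyme UBE2T attach ubiquitin to FANCD2 and FANCI, after which the crosslink is cut and recombination follows. Many of these genes are transcribed mostly in cells that are replicating DNA.

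Libraries 4, 5 and 6 are labelled WT doxycycline 1, 2 and 3, libraries 1, 2 and 3 WT control, libraries 10, 11 and 12 Y273F doxycycline, and libraries 7, 8 and 9 Y273F control. The libraries did not group by these titles. By distance over all genes tested, the nearest library carried the same title group for 0 of 12 libraries and belonged to the same set of library numbers (1/5/9, 2/6/10, 3/7/11 or 4/8/12) for 11 of 12, the exception being library 12 (Y273F doxycycline 3). DYRK1B itself had 28.6, 12.6 and 20.0 CPM (counts scaled to the depth of the library) in libraries 4, 8 and 12, labelled WT doxycycline 1, Y273F control 2 and Y273F doxycycline 3, and 2.63 to 7.80 CPM in the other 9. By title, its log2 fold change for doxycycline over control was 1.44 (SE 0.82, edgeR adjusted p = 1.00) in WT and 0.87 (SE 0.84, edgeR adjusted p = 0.990) in Y273F. A 3′-tag library reports a transgene under this gene only where the construct keeps the natural 3′ end; the sources used here do not describe that end. On the first principal component of the 500 most variable genes, which held 69.3% of their variance, libraries 6, 2 and 10 were far from the remaining 9. The titles are therefore reported as labels, and results are given by title, by library set and without libraries 2, 6 and 10. Whether each title is attached to the library it describes cannot be told from the sources used here, so every fold change between titled groups holds only for the titles as given. No condition is assigned to a set, and sets are described without a test.

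Total counts ranged from 2783265 to 22028624 per library, so that 3 counts equal 0.136 to 1.08 CPM, a floor for counting error only. Libraries 2, 6 and 10 had 4469706, 7167086 and 2783265 counts, each fewer than libraries 1, 5 and 9, with 8731527, 9502510 and 22028624. What part depth has in the contrast of these sets was not tested. The scarcest members, RAD54B, FANCB and XRCC3, had as few as 5, 6 and 7 counts in a library. The epithelial keratins and the A549-typical enzymes ALDH1A1 and AKR1B10 were abundant in every library, while the lung marker SFTPB was at 0 in all 12. The 12 epithelial markers summed to 19257 to 23615 CPM in libraries 2/6/10, against 14642 to 16402 CPM in 4/8/12, 12410 to 14074 CPM in 3/7/11 and 15112 to 15349 CPM in 1/5/9. Of the 9 tested, 5 were higher and 4 lower in 2/6/10 than in 1/5/9 without overlap, with log2 differences of -2.43 to 1.57. The 7 fibroblast markers summed to 148 to 212 CPM in libraries 2/6/10, against 30.9 to 32.2 CPM in 4/8/12, 14.5 to 17.2 CPM in 3/7/11 and 20.3 to 24.4 CPM in 1/5/9, nearly all of it COL1A1 and LUM. The endothelial markers summed to 0 to 0.59 CPM, with VWF, CLDN5 and KDR at 0. The 6 leukocyte markers, of which CD3E was at 0, summed to 6.75 to 12.1 CPM in libraries 2/6/10 and 6.30 to 7.98 CPM in 4/8/12. They summed to 8.01 to 10.8 CPM in 3/7/11 and 9.48 to 12.4 CPM in 1/5/9. What part these differences have in the results below was not tested.

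Promoters were read for 32 of the 36 genes from RefSeq (GRCh38.p14), as 250 bases before to 50 bases after the start that its table uses. The promoters of 5 genes are printed, because EXO1, FANCD2, FANCA and CHEK2 were among the genes with clearly lower values in libraries 2/6/10 and MUS81 was the gene with the highest relative value there. They lie at chr1:241847954-241848253 (EXO1, plus strand), chr3:10026187-10026486 (FANCD2, plus strand), chr16:89816598-89816897 (FANCA, minus strand), chr22:28741771-28742070 (CHEK2, minus strand) and chr11:65860183-65860482 (MUS81, plus strand). For EXO1, CHEK2 and MUS81 this start lies inside the extent that RefSeq gives the gene. All are written 5′ to 3′ in the direction of the gene. Capitals mark matches, on either strand, to an E2F-type word (TTTCCCGC, TTTCGCGC, TTTGCCGC or TTTGGCGC, the kind of sequence bound by E2F factors) or to a CCAAT box (CCAAT).
EXO1: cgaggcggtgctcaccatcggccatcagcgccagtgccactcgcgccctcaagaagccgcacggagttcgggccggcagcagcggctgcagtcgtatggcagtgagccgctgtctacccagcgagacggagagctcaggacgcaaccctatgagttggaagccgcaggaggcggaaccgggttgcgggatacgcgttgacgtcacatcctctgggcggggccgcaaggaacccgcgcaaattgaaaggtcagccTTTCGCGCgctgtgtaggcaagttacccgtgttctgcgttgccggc
FANCD2: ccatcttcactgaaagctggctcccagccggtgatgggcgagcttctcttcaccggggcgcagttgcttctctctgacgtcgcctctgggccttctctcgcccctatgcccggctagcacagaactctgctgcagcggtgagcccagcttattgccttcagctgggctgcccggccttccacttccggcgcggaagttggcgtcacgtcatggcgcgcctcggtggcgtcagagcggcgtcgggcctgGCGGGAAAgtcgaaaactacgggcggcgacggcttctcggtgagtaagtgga
FANCA: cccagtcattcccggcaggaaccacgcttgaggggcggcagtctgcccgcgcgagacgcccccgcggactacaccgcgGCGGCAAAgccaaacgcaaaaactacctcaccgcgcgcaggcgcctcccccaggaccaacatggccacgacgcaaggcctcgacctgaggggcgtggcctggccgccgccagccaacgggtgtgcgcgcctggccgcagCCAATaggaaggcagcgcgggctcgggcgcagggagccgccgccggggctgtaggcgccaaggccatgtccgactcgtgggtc
CHEK2: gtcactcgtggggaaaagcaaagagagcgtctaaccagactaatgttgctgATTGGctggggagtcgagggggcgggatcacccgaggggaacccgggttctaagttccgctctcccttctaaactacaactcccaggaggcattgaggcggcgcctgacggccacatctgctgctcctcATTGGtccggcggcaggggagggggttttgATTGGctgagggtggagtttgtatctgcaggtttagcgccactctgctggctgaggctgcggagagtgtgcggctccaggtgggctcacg
MUS81: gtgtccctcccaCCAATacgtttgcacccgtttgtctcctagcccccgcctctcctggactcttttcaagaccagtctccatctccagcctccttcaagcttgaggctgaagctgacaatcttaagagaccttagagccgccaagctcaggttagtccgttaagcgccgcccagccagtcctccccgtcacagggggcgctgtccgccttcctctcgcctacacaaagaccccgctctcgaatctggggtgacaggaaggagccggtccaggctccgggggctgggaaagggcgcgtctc

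An E2F-type word stood in 5 of the 32 promoters (15.6%), against 3.33% of 27305 promoters of the same length. Its first base lay at position 5 in EXO1, -2 in FANCD2, -172 in FANCA, 22 in XRCC2, and -172 and -46 in FANCC, with the start that the promoter table uses as 1. CCAAT was present in 16 of 32 (50%), against 35.7% of all promoters, and CHEK2 held 3 of them in reverse, at -199, -70 and -40. The word TTTGAA, the core of a cell cycle element called CHR, was present in 4 of 32 (12.5%), against 15.4% of all promoters. MUS81 had no E2F-type word in this window and 1 CCAAT box at -238. These are matches of letters and not sites of measured binding. The 27305 promoters were not limited to the genes tested here.

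Between the titled groups, no gene passed. In the comparison of doxycycline with control in WT cells, edgeR's quasi-likelihood test called 0 of 13047 genes (0%) and 0 of the 36 members at an adjusted p under 0.05, as it did in Y273F cells (0%), for the difference between the doxycycline effects of WT and Y273F (0%), and for Y273F control against WT control (0%). The number of genes at an unadjusted p under 0.05 was 118, 215, 160 and 445 in the same order, and it was 0 of 36 members in all 4 comparisons. DESeq2 and limma-voom called 0 genes in each as well. The 95% interval of the log2 fold change held 0 for all 36 members in all 4 comparisons.

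With the WT titles, the members' median log2 fold change for doxycycline over control was 0.07 (22 positive, 14 negative), beside -0.00 over all genes. PALB2, the bridge between BRCA1 and BRCA2, had the lowest value at -0.40 (SE 0.24, adjusted p = 1.00), and FANCB, a core complex subunit, the highest at 0.65 (SE 0.41, adjusted p = 1.00). With the Y273F titles the median was -0.25 (3 positive, 33 negative), beside 0.01 over all genes. XRCC3, a strand exchange factor, was lowest at -0.71 (SE 0.39, adjusted p = 0.990), with 6.41 ± 3.41 CPM in libraries labelled Y273F doxycycline and 10.8 ± 2.16 CPM in those labelled Y273F control (SD, n = 3 each). The members' median for the WT effect minus the Y273F effect was 0.31, and it was 0.28 for Y273F control over WT control, beside -0.02 and -0.03 over all genes. The smallest p among the members belonged to ATM in Y273F control over WT control, with a log2 fold change of 0.33 (SE 0.15, unadjusted p = 0.0542, edgeR adjusted p = 0.991). These comparisons share libraries: the Y273F control group enters 3 of them, and the WT control group enters 3.

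**Figure D1:**
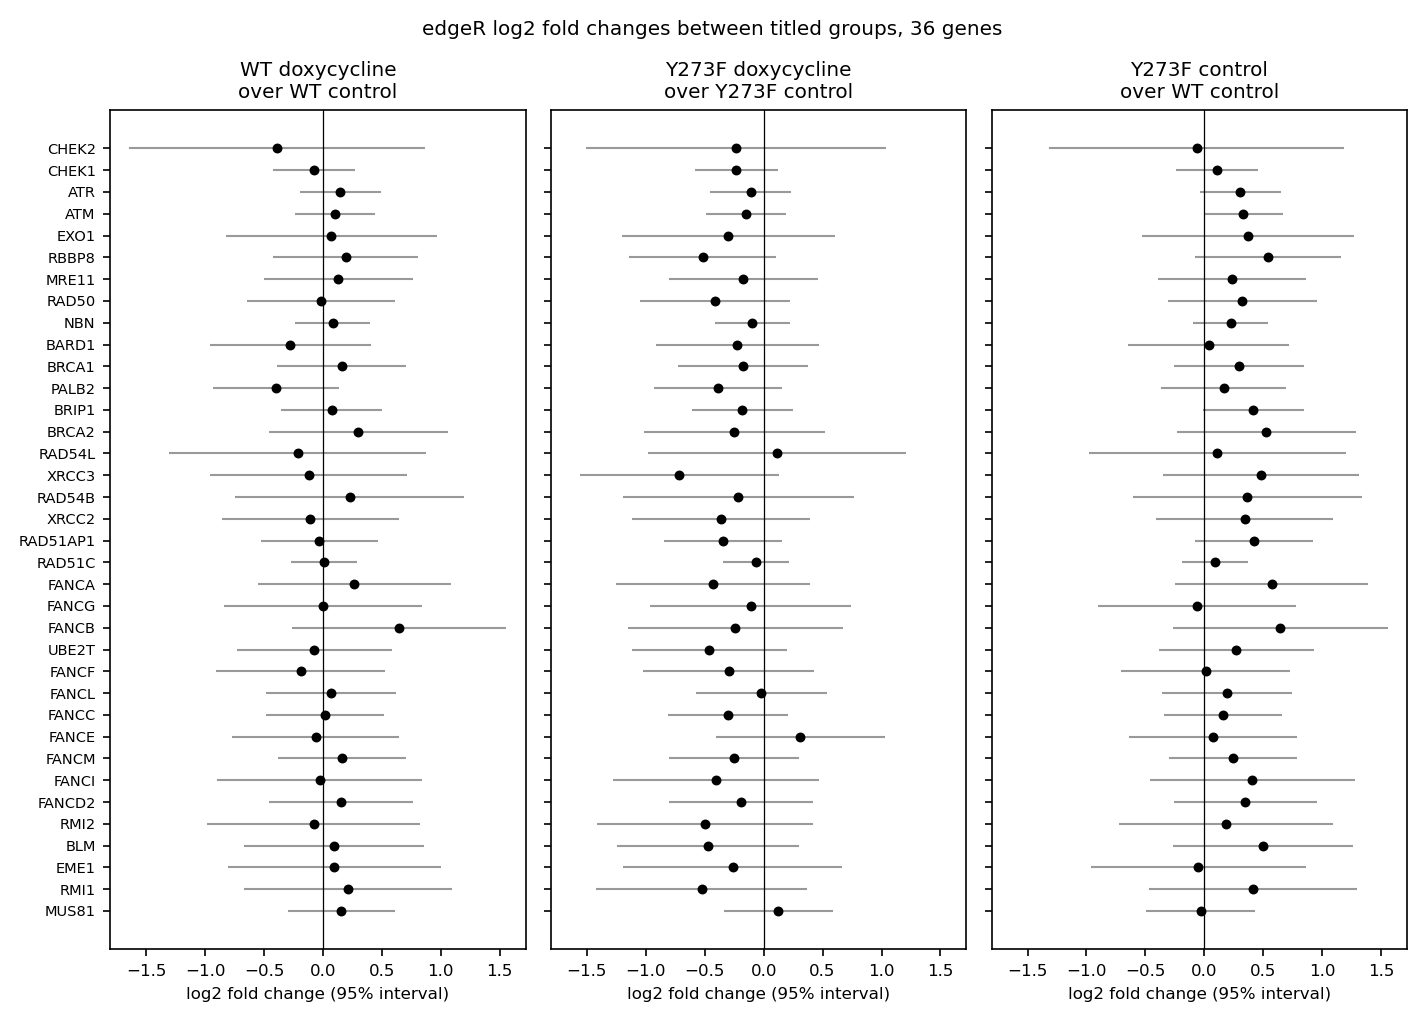
Log2 fold change of each of the 36 genes (rows) in 3 comparisons of titled groups (panels), with bars for the 95% interval of edgeR's fit (n = 3 libraries a group). Every bar crosses 0, and the points lean below 0 for Y273F doxycycline over Y273F control and above 0 for Y273F control over WT control.

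Members were also counted where every library of a titled group lay beyond every library of the other. For doxycycline in WT, 0 of 36 members had groups that did not overlap, beside 3.2% of all genes. For doxycycline in Y273F, 6 members (RBBP8, PALB2, FANCM, UBE2T, BLM and RMI2) were lower in all 3 libraries labelled Y273F doxycycline, beside 10.9% of all genes separated in either direction. For Y273F control over WT control, 12 members were higher in all 3 Y273F control libraries (ATM, ATR, RAD50, RBBP8, BRCA1, BRIP1, RAD51AP1, FANCA, FANCB, FANCD2, FANCI and BLM), beside 10.9% of all genes separated in either direction. In both comparisons 0 members were separated the other way, so 6 and 12 are also the members' counts for either direction. Y273F control is the only titled group that holds none of libraries 2, 6 and 10, and each of the other groups holds 1 of them.

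The level of the 36 genes in a library, taken as the mean of log2 CPM minus each gene's mean over the 12 libraries, varied more within titled groups than within library sets. It was -0.49, 0.14 and 0.21 in the libraries labelled WT doxycycline, and -0.52, 0.08 and 0.19 in those labelled WT control. It was -0.61, 0.16 and 0.16 in libraries labelled Y273F doxycycline, and 0.22, 0.22 and 0.24 in those labelled Y273F control. The lowest value in each of the first 3 groups is library 6, 2 or 10. The pooled SD within titled groups was 0.35, and within library sets it was 0.05.

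**Figure D2:**
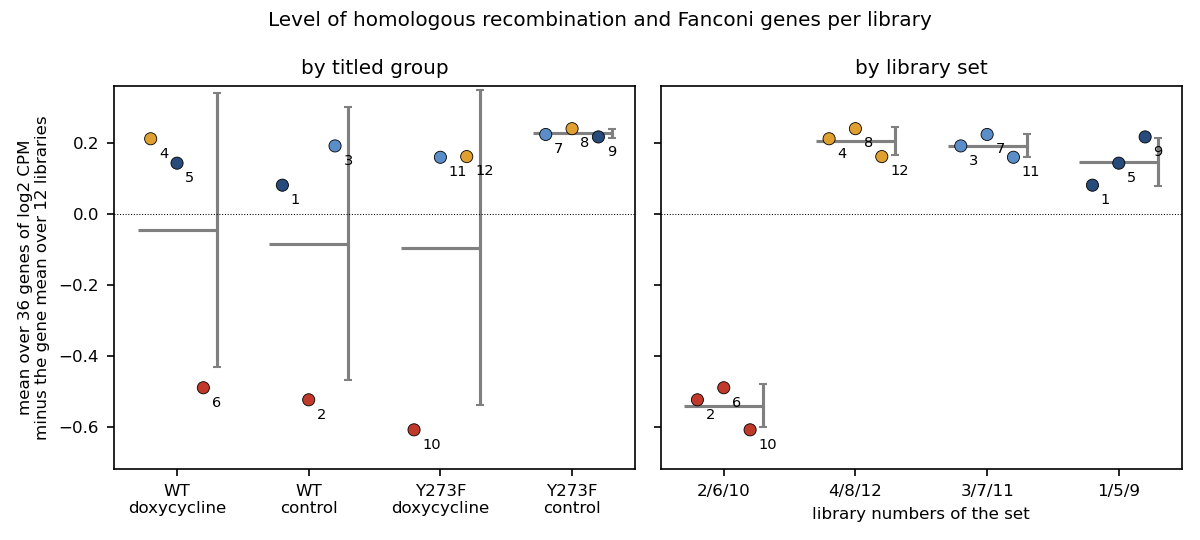
Level of the 36 genes in each library (mean of log2 CPM minus each gene's mean over 12 libraries), by titled group on the left and by library set on the right. Points are libraries with their numbers, coloured by set, and bars show the mean and SD of 3; libraries 2, 6 and 10 lie between -0.61 and -0.49 and the other 9 between 0.08 and 0.24.

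Without libraries 2, 6 and 10 the members' medians were 0.03 for doxycycline in WT, -0.08 for doxycycline in Y273F, 0.11 for the difference and 0.15 for Y273F control over WT control, with 0 genes called in each. With 2 libraries left in 3 of the groups, separation is easier to reach. It was then met by 11 members for doxycycline in WT (7 higher, 4 lower), beside 23.6% of all genes, and by 7 for doxycycline in Y273F (1 higher, 6 lower), beside 19.4%. For Y273F control over WT control 17 members were separated (14 higher, 3 lower), beside 22.4% of all genes. ATR, BRCA1, FANCA, FANCB, FANCD2, NBN and RBBP8 were the 7 that were higher with the WT doxycycline label.

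By library set, most of the 36 genes were lower in 2/6/10. In libraries 2/6/10, 34 of the 36 genes had a lower mean log2 CPM than in libraries 1/5/9, with a median difference of -0.75, beside -0.02 over all genes tested. In 27 of them every library of 2/6/10 was below every library of 1/5/9, beside 27.6% of all genes. NBN and MUS81 were the 2 with higher values and no overlap, beside 27.7% of all genes. Against all other 9 libraries, 23 genes were lower in each of 2, 6 and 10 (16.3% of all genes), and MUS81 alone among the 36 was higher (18.8% of all genes). In bulk RNA, fewer cells that express a gene and less RNA of it per cell cannot be told apart.

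**Figure D3:**
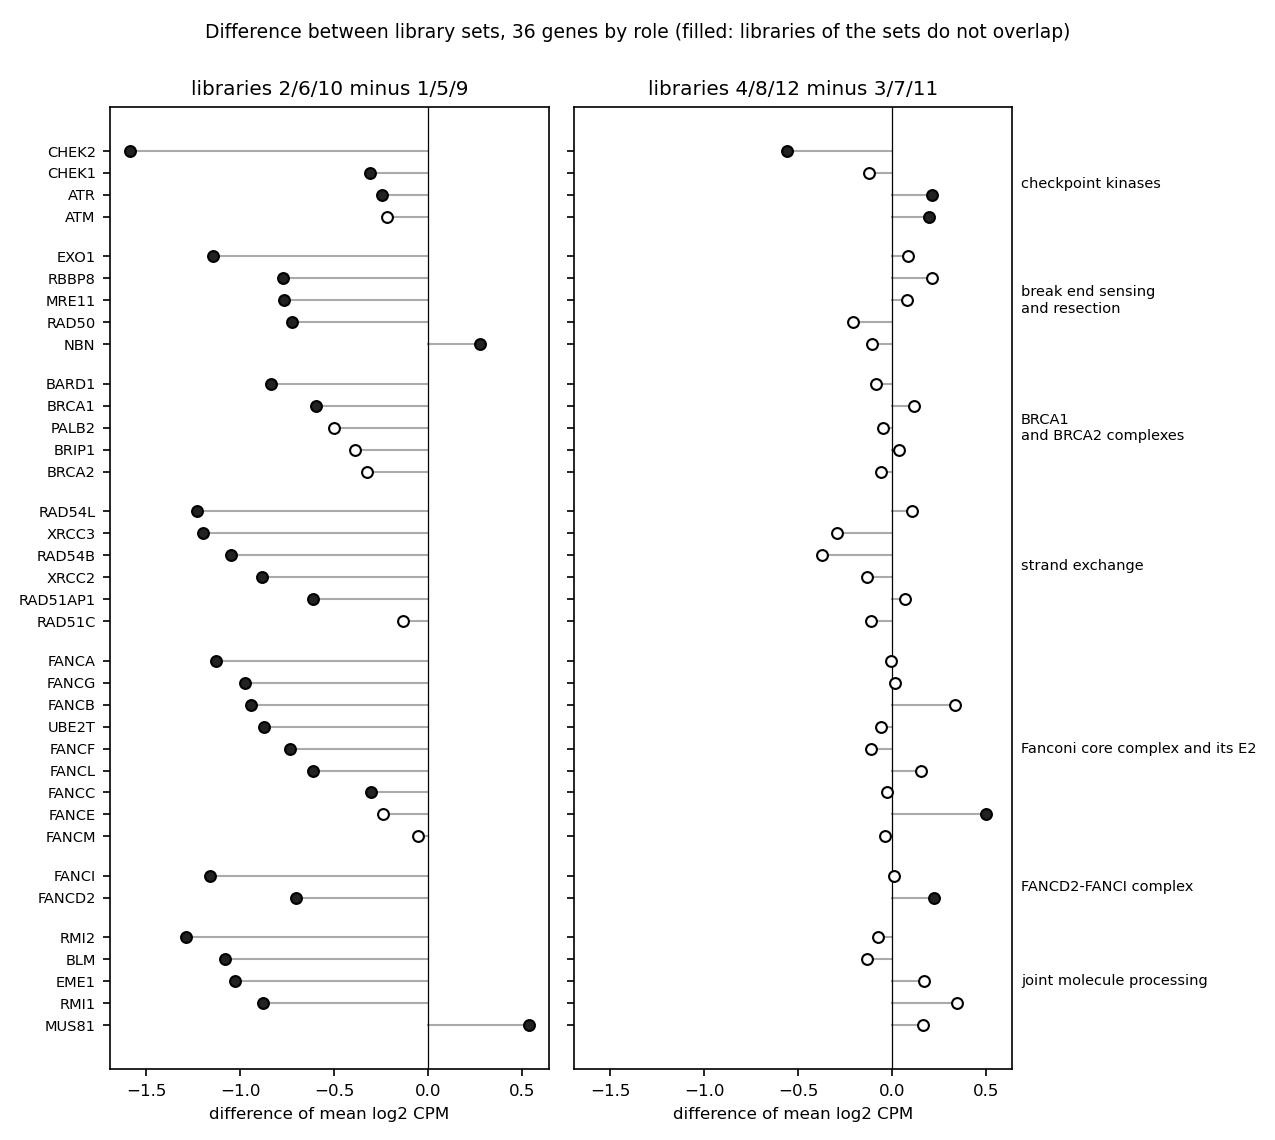
Difference of mean log2 CPM between library sets for each of the 36 genes, in rows by role, for 2/6/10 minus 1/5/9 (left) and 4/8/12 minus 3/7/11 (right). Filled points mark genes whose libraries do not overlap between the sets; on the left 27 filled points are below 0 and 2 above, on the right 1 is below and 4 above.

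Among the checkpoint kinases, CHEK2 (chr22:28687742-28741834), which relays the ATM signal, had the largest difference of all 36 genes. It had 6.98, 3.06 and 4.29 CPM in libraries 2, 6 and 10, 14.5, 9.63 and 12.1 CPM in 4, 8 and 12, 18.5, 17.7 and 16.8 CPM in 3, 7 and 11, and 15.9, 14.3 and 12.3 CPM in 1, 5 and 9. The log2 difference between 2/6/10 and 1/5/9 was -1.59, lower than that of all but 2.28% of the genes tested. Its promoter is the one above with 3 reversed CCAAT boxes. ATR (chr3:142449235-142578733), the kinase for stalled forks and the most abundant of the 4, had 20.0, 24.2 and 23.3 CPM in 2, 6 and 10, 28.3, 33.2 and 31.1 in 4, 8 and 12, 25.7, 27.2 and 26.8 in 3, 7 and 11, and 25.3, 26.5 and 28.1 in 1, 5 and 9. ATR was thus lowest in 2/6/10 and highest in 4/8/12 without overlap, but its difference from 1/5/9 was only -0.25. CHEK1, the kinase downstream of ATR, differed by -0.31, and ATM by -0.22 with overlapping libraries.

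Break end resection genes differed more, with NBN apart from its partners. EXO1 (chr1:241847986-241889939), a 5′ to 3′ exonuclease with an E2F-type word in its promoter window, had 9.90, 8.22 and 7.52 CPM in 2, 6 and 10, 22.2, 20.9 and 19.8 in 4, 8 and 12, 16.5, 22.2 and 21.1 in 3, 7 and 11, and 20.2, 19.0 and 18.0 in 1, 5 and 9. All 3 values in 2/6/10 are below every other library, and the log2 difference from 1/5/9 was -1.14. NBN (chr8:89933331-89984667), the signalling subunit of the MRE11-RAD50-NBN complex, had 73.1, 79.0 and 73.7 CPM in 2, 6 and 10, 60.4, 71.1 and 63.6 in 4, 8 and 12, 60.4, 81.0 and 70.2 in 3, 7 and 11, and 56.4, 61.6 and 69.3 in 1, 5 and 9. The difference was 0.27, and library 7 reached above all of 2/6/10. The other subunits went the opposite way: MRE11, the nuclease, by -0.77 and RAD50, the ATPase, by -0.73. RBBP8, which starts resection with MRE11, differed by -0.78.

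Of the 5 genes of the BRCA1 and BRCA2 complexes, BRCA1 and BARD1 were lower in 2/6/10 than in 1/5/9 without overlap, beside 27.6% of all genes. BRCA1 (chr17:43044295-43170327), the most abundant of all 36, had 77.9, 74.1 and 92.7 CPM in 2, 6 and 10, 153, 131 and 129 in 4, 8 and 12, 121, 136 and 123 in 3, 7 and 11, and 119, 128 and 123 in 1, 5 and 9. BARD1 (chr2:214725646-214809683), its partner in the ubiquitin ligase, had 23.9, 17.7 and 20.4 CPM in 2, 6 and 10, 37.2, 37.2 and 37.9 in 4, 8 and 12, 45.1, 38.4 and 36.4 in 3, 7 and 11, and 39.4, 35.1 and 36.3 in 1, 5 and 9. Both were below all other libraries in 2/6/10, with log2 differences from 1/5/9 of -0.60 for BRCA1 and -0.84 for BARD1. PALB2, BRIP1 (the FANCJ helicase) and BRCA2 differed by -0.50, -0.39 and -0.33, each with overlap.

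Of the 6 genes that act in strand exchange, 5 were lower in 2/6/10 than in 1/5/9 without overlap, beside 27.6% of all genes. RAD54L (chr1:46247688-46278473), a motor protein of strand exchange, had 4.50, 2.09 and 4.65 CPM in 2, 6 and 10, 9.58, 8.30 and 12.2 in 4, 8 and 12, 10.0, 7.90 and 9.77 in 3, 7 and 11, and 8.52, 8.45 and 8.94 in 1, 5 and 9, a log2 difference of -1.23 from 1/5/9. RAD51C (chr17:58692573-58735611), the most abundant of the group, had 58.3, 60.6 and 66.2 CPM in 2, 6 and 10, 72.6, 65.1 and 66.7 in 4, 8 and 12, 77.3, 73.7 and 70.2 in 3, 7 and 11, and 63.3, 67.0 and 73.3 in 1, 5 and 9. It overlapped between the sets at -0.14, while XRCC3 and XRCC2 were separated at -1.20 and -0.89. XRCC2 has an E2F-type word in its promoter window and XRCC3 has none. RAD54B and RAD51AP1, which stimulates strand invasion, stood at -1.05 and -0.61.

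**Figure D4:**
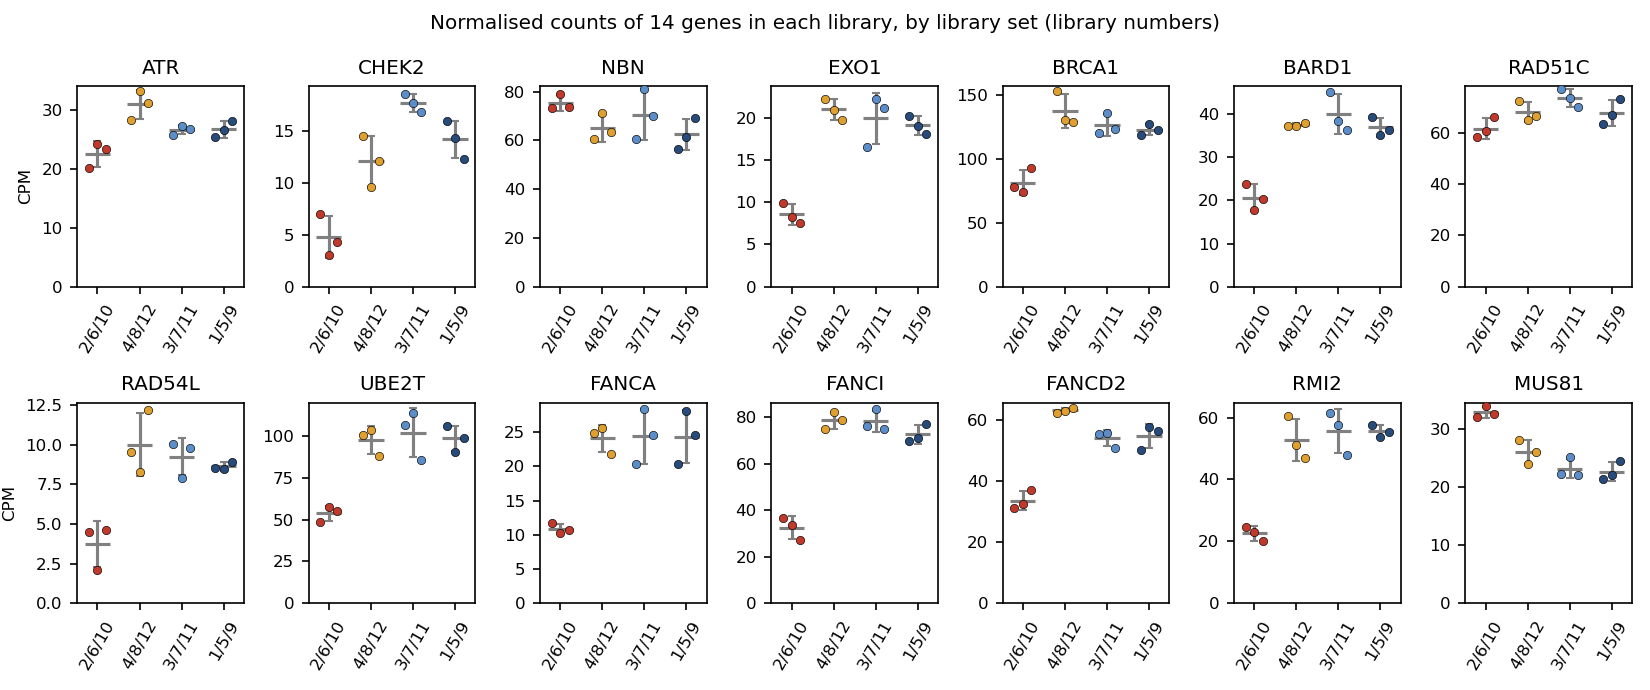
CPM of 14 genes in each of the 12 libraries (points), with the mean and SD of each library set (n = 3), each axis starting at 0. ATR, CHEK2, EXO1, BRCA1, BARD1, RAD54L, UBE2T, FANCA, FANCI, FANCD2 and RMI2 are lowest in all 3 libraries of 2/6/10. MUS81 is highest there, and RAD51C and NBN overlap the other libraries.

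All 9 genes of the Fanconi core complex and its E2 had a lower mean log2 CPM in 2/6/10 than in 1/5/9. For 7 of them the sets did not overlap, beside 27.6% of all genes. UBE2T (chr1:202331657-202341936), the ubiquitin-conjugating enzyme, had 48.6, 57.6 and 55.1 CPM in 2, 6 and 10, 101, 104 and 88.1 in 4, 8 and 12, 107, 114 and 85.8 in 3, 7 and 11, and 106, 90.8 and 98.9 in 1, 5 and 9. FANCA (chr16:89737549-89816647), the core subunit with the largest difference and an E2F-type word in its promoter, had 11.7, 10.3 and 10.7 CPM in 2, 6 and 10, 25.0, 25.6 and 21.8 in 4, 8 and 12, 20.3, 28.3 and 24.6 in 3, 7 and 11, and 20.3, 28.2 and 24.6 in 1, 5 and 9. The log2 differences from 1/5/9 were -0.87 for UBE2T and -1.13 for FANCA. FANCG, which forms a subcomplex with FANCA, differed by -0.98 and FANCB by -0.94, while FANCF stood at -0.74 and FANCL, the ubiquitin ligase, at -0.62. FANCC, with 2 E2F-type words in its promoter window, differed by -0.31. FANCE and the FANCM translocase overlapped at -0.24 and -0.05, and their sign changed under some alternatives.

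The ubiquitinated pair FANCD2 and FANCI was lower as well. FANCI (chr15:89243979-89317259) had 36.7, 33.7 and 27.2 CPM in 2, 6 and 10, 75.0, 82.4 and 78.9 in 4, 8 and 12, 76.1, 83.5 and 75.1 in 3, 7 and 11, and 69.7, 71.0 and 77.2 in 1, 5 and 9. FANCD2 (chr3:10026437-10101932), with an E2F-type word in its promoter window, had 31.1, 32.6 and 37.2 CPM in 2, 6 and 10, 62.4, 63.1 and 64.1 in 4, 8 and 12, 55.5, 55.9 and 51.0 in 3, 7 and 11, and 50.3, 57.9 and 56.4 in 1, 5 and 9. In 2/6/10, FANCI was at 44.7% and FANCD2 at 61.4% of the level in 1/5/9, as the ratio of mean log2 CPM brought back to the linear scale.

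Among the genes that take joined DNA molecules apart, the BLM helicase and its partners differed against MUS81. RMI2 (chr16:11345459-11351760), a scaffold of the BLM complex, had 24.8, 23.1 and 20.0 CPM in 2, 6 and 10, 60.4, 51.1 and 46.9 in 4, 8 and 12, 61.6, 57.6 and 47.9 in 3, 7 and 11, and 57.6, 53.6 and 55.5 in 1, 5 and 9, a log2 difference of -1.29 from 1/5/9. MUS81 (chr11:65859674-65867653), a structure-specific nuclease, had 32.0, 33.8 and 32.6 CPM in 2, 6 and 10, 28.0, 23.9 and 26.0 in 4, 8 and 12, 22.2, 25.1 and 22.1 in 3, 7 and 11, and 21.4, 22.0 and 24.5 in 1, 5 and 9. All 3 libraries of 2/6/10 were above the other 9, at a log2 difference of 0.53 from 1/5/9. BLM and RMI1 differed by -1.08 and -0.88. EME1, the partner of MUS81 in the nuclease, differed by -1.03, so the 2 subunits lay on opposite sides of 0.

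Between the sets other than 2/6/10 the 36 genes differed little. The median over the 36 genes was 0.00 for 4/8/12 minus 3/7/11, the contrast in which DYRK1B differs by 2.14 on the log2 scale. FANCD2, FANCE, ATR and ATM were higher in 4/8/12 without overlap, at 0.22, 0.50, 0.21 and 0.20, beside 8.98% of all genes, and CHEK2 was lower at -0.56, beside 8.5%. For 3/7/11 minus 1/5/9 the median was 0.03, with CHEK2 higher at 0.32 (9.67% of all genes) and CHEK1 lower at -0.15 (9.98% of all genes). Set 2/6/10 differed from 4/8/12 by a median of -0.82, slightly more than from 1/5/9, with 28 genes lower (23.1% of all genes) and again NBN and MUS81 higher (25% of all genes). These contrasts share sets with each other and are not separate evidence.

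Genes of DNA replication and mitosis differed in the same libraries. Of 39 genes of replication and G1/S, 38 were lower in 2/6/10 than in 1/5/9 (37 without overlap), with a median log2 difference of -0.90. Of 24 tested genes of mitosis and G2/M all 24 were lower (18 without overlap), with a median of -0.56. Over all genes, 27.6% were lower without overlap in this contrast. The proliferation marker MKI67 had 129 to 178 CPM in 2/6/10, 217 to 253 in 4/8/12, 210 to 223 in 3/7/11 and 185 to 238 in 1/5/9. CDKN1A, which encodes the cell cycle inhibitor p21, had 243 to 276 CPM in 2/6/10, and 43.1 to 63.4 CPM in the other 9 libraries. Whether the members' lower values go with the share of cycling cells was not tested.

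**Figure D5:**
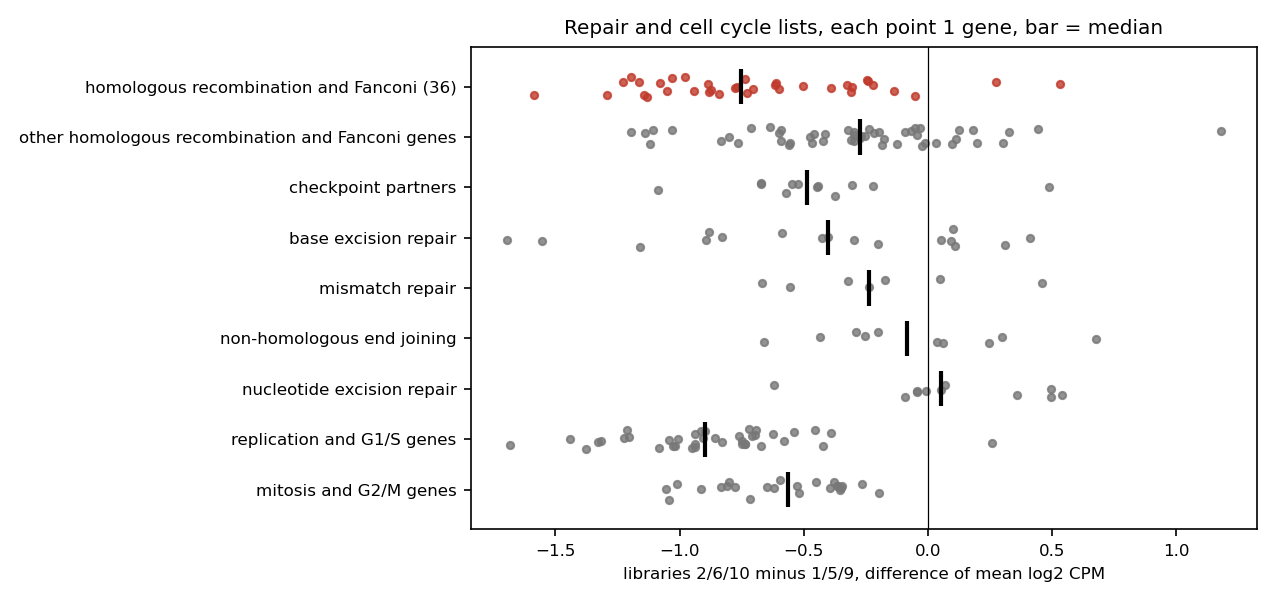
Difference of mean log2 CPM between libraries 2/6/10 and 1/5/9 for each tested gene (points) of the 36 genes and of other repair and cell cycle lists (rows), with each list's median as a bar. The medians run from -0.90 for replication and G1/S genes and -0.75 for the 36 genes to 0.05 for nucleotide excision repair.

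Other genes of recombination and crosslink repair differed less. Of 51 tested genes of this kind outside the 36, 41 were lower in 2/6/10 than in 1/5/9, with a median of -0.27. Without overlap, 25 were lower and 3 higher, beside 27.6% and 27.7% of all genes. RPA3, a subunit of the single-strand binding protein, had 73.7 to 81.2 CPM in 2/6/10 and 165 to 173 CPM in 1/5/9. MCM9, a helicase of recombination, had 3.58 to 3.83 CPM in 2/6/10 and 8.18 to 8.36 in 1/5/9. At the other end FAN1, a nuclease that acts at crosslinks, differed by 0.44 and RNF8, a ubiquitin ligase at breaks, by 0.33. Of 12 checkpoint partners, 11 were lower (median -0.49), from TIMELESS at -1.09 and RAD1 at -0.67 to ATRIP at -0.22, with HUS1 higher at 0.49.

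Repair that does not use a sister chromatid was mixed. Non-homologous end joining, which rejoins ends directly, had 5 of 10 genes lower and a median of -0.08, with PAXX at -0.66, DCLRE1C at -0.43, PRKDC at 0.25 and LIG4 at 0.68. In mismatch repair 5 of 7 were lower (median -0.24), with MSH6 at -0.56, MSH3 at -0.17 and MLH3 at 0.05. Base excision repair had 11 of 17 lower (median -0.40), with NTHL1 at -1.56, LIG1 at -1.16, OGG1 at 0.31 and TDG at 0.41. In nucleotide excision repair 5 of 11 were lower (median 0.05), with XPA at -0.09, ERCC6 at 0.49 and GTF2H1 at 0.54. The difference between these lists and the 36 genes was described and not tested.

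Promoter words and values were set side by side for the 32 genes with a promoter. The 5 genes with an E2F-type word had a median log2 difference between 2/6/10 and 1/5/9 of -0.89 (-1.14 to -0.31), and the 27 without it had -0.73 (-1.59 to 0.53). The 16 genes with CCAAT had a median of -0.75, and the 16 without it -0.72. The 5 with the word stood at -1.14 (EXO1), -1.13 (FANCA), -0.89 (XRCC2), -0.70 (FANCD2) and -0.31 (FANCC, with 2 words). CHEK2, with the lowest value, had no E2F-type word in the window. Neither had RAD54L, XRCC3 and BLM, at -1.23, -1.20 and -1.08.

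Some members have neighbours or copies that bear on counting. Reads on the strand opposite to the gene were more numerous than the gene's own for EME1 (25396 against 1075) and RAD54L (4475 against 809), and they numbered 2448 against 3065 for FANCL, 743 against 2137 for FANCA and 2462 against 6715 for FANCI. The strand-specific counts used here leave these reads out. With unstranded counts the log2 difference between 2/6/10 and 1/5/9 was -0.20 in place of -0.62 for FANCL and -0.69 in place of -1.08 for BLM. BLM had only 1 read on the opposite strand against 1728 of its own, and what moved its value was not tested. No unstranded value is given here for EME1 and RAD54L. Pseudogenes named after BRCA1, RAD51AP1, FANCD2, MRE11, CHEK2 and RBBP8 had 0 to 2 counts each in all libraries together.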

How the data were processed

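QuantSeq FWD V2 libraries, per the labels' protocols, were made from RNA of A549 cells. In this 3′-tag method a read counts a transcript end, so levels need no length scaling. Alignment to GRCh38.p14 used STAR, per the submitters' processing notes; the sources used here name no version, annotation release or treatment of molecular identifiers. For each of the 12 libraries the authors deposited read counts per gene as whole numbers, and a merged table that equals the transcript-strand counts in all 40605 rows. Reads in no gene (35.5% to 43.2% of a library) were left out.

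CPM values are counts scaled by library total and TMM factor, and log2 CPM has a prior count of 2. Groups came from the titles. After filterByExpr (minimum count 10), edgeR 4.0.16 in R 4.3.3 fitted 1 model of 4 group means with 8 residual degrees of freedom and Benjamini-Hochberg adjustment over 13047 genes at 0.05. The fit was tested on simulated data with known changes between titled groups. It recovered 29% to 30% of 2-fold changes and 70% to 78% of 4-fold changes (100 genes changed at each), with 5 to 7 false calls in a comparison. The simulated libraries were drawn independently around 1 mean per gene, without the shifts that libraries of a set share. These rates therefore need not hold for the real libraries. In such simulated data most 2-fold changes between titled groups were missed. In the fit of 4 group means, p-values weigh differences between titled groups against the spread within them. Each titled group held libraries of different library sets, so this spread includes the differences between sets. For the level of the genes described here, the pooled SD was 0.35 within titled groups and 0.05 within library sets. The p-values therefore do not measure the spread between parallel cultures alone. Library sets were described by differences of mean log2 CPM, and groups or sets that do not overlap are those in which every library of one lies beyond every library of the other.

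The 36 genes and all lists were chosen with earlier results of these data known. In each of 7 role groups the gene with the highest mean CPM and the gene with the largest difference between 2/6/10 and 1/5/9 are given in every library; where these were the same, the gene with the smallest difference was added. In the other repair lists the 2 lowest and 2 highest differences among genes with a mean of at least 5 CPM are named. Results for some genes that these rules name are not reported here. Alternatives were DESeq2 1.42.0, limma-voom (limma 3.58.1), other size factors and filters, unstranded counts, a term for the replicate number or the library set, and leaving out libraries. Counts of separated genes against the other 9 libraries, and without libraries 2, 6 and 10, were added after seeing the data.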

Additional observations from a re-analysis of the deposited data

How the results depend on the processing

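Under other size factors, filters, tests and fits, 0 genes and 0 members were called in all 4 titled comparisons. With unstranded counts, the members lower without overlap in 3/7/11 than in 1/5/9 numbered 0 in place of 1, and the median of 2/6/10 minus 4/8/12 was -0.74 in place of -0.82. With the library set as a term beside the titles, the members' medians were 0.05 for doxycycline in WT, -0.12 for doxycycline in Y273F, 0.14 for their difference and 0.09 for Y273F control over WT control. In that edgeR fit 460, 765, 708 and 1392 genes had an unadjusted p under 0.05, in the same order. Among them were 1, 5, 4 and 2 members, in place of 0 in each comparison of the main fit. The replicate numbers of the titles do not pair the libraries (correlations of same-numbered libraries -0.69 to 0.57). With the replicate block, 0 genes were called, 73, 113, 78 and 282 genes had an unadjusted p under 0.05, and the medians were 0.06, -0.25, 0.31 and 0.29.

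Leaving out each library in turn gave 0 to 1 genes called, none of them a member. The 1 call came without Y273F control 2 (doxycycline in Y273F, and Y273F control over WT control) and without Y273F doxycycline 2 or 3 (doxycycline in Y273F, and the difference). The members' median ranged from -0.12 to 0.20 for doxycycline in WT, -0.39 to -0.08 for doxycycline in Y273F, 0.13 to 0.47 for the difference and 0.14 to 0.41 for Y273F control over WT control. Over the same omissions, the median of 2/6/10 minus 1/5/9 ranged from -0.82 to -0.69, with 27 to 32 members lower and 2 higher. That of 2/6/10 minus 4/8/12 ranged from -0.89 to -0.77, with 28 to 30 lower and 2 higher. For 4/8/12 minus 3/7/11 the median ranged from -0.04 to 0.04, with 4 to 7 higher (7 without WT control 3 or Y273F control 1) and 1 to 6 lower (6 without Y273F control 2). For 3/7/11 minus 1/5/9 the median ranged from 0.01 to 0.06, with 2 to 8 higher (8 without Y273F control 3) and 1 to 3 lower (3 without WT control 1). Without library 10, RAD50 differed between 2/6/10 and 1/5/9 by -0.47 in place of -0.73 and FANCB by -0.60 in place of -0.94. FANCE and FANCM were the members whose sign changed in that contrast under some alternatives, with ranges of -0.47 to 0.005 and -0.21 to 0.11. A set of 2 libraries is separated more easily than a set of 3. The share of all genes separated under these omissions is not given here. The members' counts above therefore cannot be set beside the shares of the full sets, and a rise in them is not a result about the members. Members with few counts in the shallowest library, such as RAD54B with 5, limit what these libraries can show.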
